A study of Mus musculus with 6 samples.

Results

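Transcripts of chemokine and chemoattractant receptors were examined in J774 cells, a mouse macrophage line, after knockdown of NCOA4, the cargo receptor that delivers ferritin to the lysosome for iron release. The group was given by name and holds 9 of the 55487 genes measured: the chemokine receptors Ccr1, Ccr2 and Cx3cr1, the chemerin-binding receptors Ccrl2 and Cmklr1, the formyl peptide receptors Fpr1 and Fpr2, and the nucleotide receptors P2ry6 and P2ry12. Cells received control siRNA or NCOA4 siRNA by liposome-mediated transfection, with no other treatment, and 3 libraries of each were labelled as biological replicates. P-values measure the spread between these libraries. The study used 1 siRNA against NCOA4 in a single cell line, so an effect of lowering NCOA4 and an effect of that siRNA sequence cannot be told apart. Poly(A)-selected RNA was sequenced, and the deposited values are transcript abundances scaled to the same total in each library (TPM), which correct for gene length and library size and let levels of different genes be set side by side.

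These receptors cross the membrane repeatedly, and most of them couple to heterotrimeric G proteins and steer migrating leukocytes along gradients of a ligand. Chemokine receptors bind small secreted proteins, formyl peptide receptors sense bacterial and mitochondrial peptides, and P2Y receptors sense nucleotides that leak from damaged or dying cells. Ccrl2 differs from the others in that it binds chemerin without a known migratory signal of its own and presents it to Cmklr1.

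Receptors of this class carry a short conserved box, named DRY after its residues, at the inner end of the third membrane helix, where the receptor contacts the G protein. It was located by its letters in Ccr1 and by global alignment to Ccr1 in the other members, using the coding sequences of GENCODE M21 (GRCm38). The codons are shown because the members differ at this site. Capitals mark the codons of the box itself and lower case the next residues, each read 5′ to 3′ on the coding strand.
Ccr1, chr9:123964084-123964104, minus strand: GACAGATACctggccattgtc
Ccr2, chr9:124106132-124106152, plus strand: GATAGGTACttggctattgtt
Cx3cr1, chr9:120051936-120051956, minus strand: GACCGGTACcttgccatcgtc
Ccrl2, chr9:111056015-111056035, minus strand: CAAGGATACagggtgttttcc
Cmklr1, chr5:113614519-113614539, minus strand: GACCGCTGCatctccgtgctg
P2ry6, chr7:100938764-100938784, minus strand: CAGCGCTACctgggcatctgc
P2ry12, chr3:59217854-59217874, minus strand: GACCGCTACctgaagaccacc
Fpr1, chr17:17877318-17877338, minus strand: GACCGCTGTatttgtgttctg
Fpr2, chr17:17893107-17893127, plus strand: GACCGCTGCatttgtgttctg
The box opens with codons for aspartate and arginine in 7 of the 9 receptors, and Ccrl2 and P2ry6 are those without this pair. All 9 genes hold their coding sequence in 1 exon of the transcript with the longest coding sequence, and Ccr1, Ccr2, Ccrl2 and Cx3cr1 lie on chromosome 9.

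The knockdown was seen in every library. Ncoa4 averaged 21.6 ± 1.57 TPM in controls (SD, n = 3, as for all means here) against 9.04 ± 0.533 TPM in the knockdown libraries. Its log2 fold change was -1.21 (adjusted p = 0.00127). Reads on genes numbered 15738600 to 18563209 per library. Genes of the mitochondrial genome took 12.9% of TPM in control siRNA replicate 1 and between 9.36% and 10.2% in the other 5 libraries. All 11 macrophage markers were above the level tested, and none of the 10 lymphocyte or 8 fibroblast and epithelial markers was. Of 9 neutrophil markers 6 were at 0 in every library, Ly6g and S100a9 among them, while S100a8 was at 18.8 to 25.2 TPM in controls and 15.3 to 19.6 TPM after knockdown (adjusted p = 0.249). The macrophage markers moved with the groups: 5 rose, namely Mrc1, Fcgr1, Mertk, Csf1r and Adgre1, and Cd14 fell. At the same adjusted p under 0.05, 3.11% of all genes tested rose and 2.31% fell. The 11 macrophage markers summed to 8739 to 8938 TPM in controls and 9146 to 9251 TPM after knockdown. The part of this in the receptor results was not tested. In bulk RNA, a change in the share of cells that hold a transcript and a change in transcript per cell cannot be told apart.

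Taken over the group, 4 receptors rose after NCOA4 knockdown (P2ry12, Ccrl2, Cmklr1 and P2ry6) and none fell. Genes were tested with limma on log2(TPM + 0.5), with Benjamini-Hochberg adjustment over the 13829 genes whose mean was at least 0.5 TPM, and 8 of the 9 receptors were among them. An adjusted p under 0.05 was reached by 4 receptors, all higher, against 3.11% of all genes tested that were higher and 2.31% that were lower at this threshold. A gene was called where its fold change also exceeded 1.5, and P2ry12, Ccrl2 and Cmklr1 were called higher, against 0.861% of all genes called higher and 0.318% called lower. The 3 values with NCOA4 siRNA all lay above the 3 control values for 7 receptors, and for none did they all lie below, where 16.6% of all genes tested did the first and 11.8% the second. The median log2 fold change of the 8 tested receptors was 0.51, beside 0.03 over all genes. The members were chosen with earlier results of these data known, so the comparison with all genes is a description only. The number called fell to 1 when control siRNA replicate 3, NCOA4 siRNA replicate 1 or NCOA4 siRNA replicate 3 was left out. It fell to 0 without NCOA4 siRNA replicate 2, so the count of 3 did not hold with every library left out. These fits used fewer samples, and without NCOA4 siRNA replicate 2 the genes called fell from 163 to 77. The log2 fold changes of P2ry12, Ccrl2 and Cmklr1 in that fit were 0.93, 0.68 and 0.82.

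**Figure D1:**
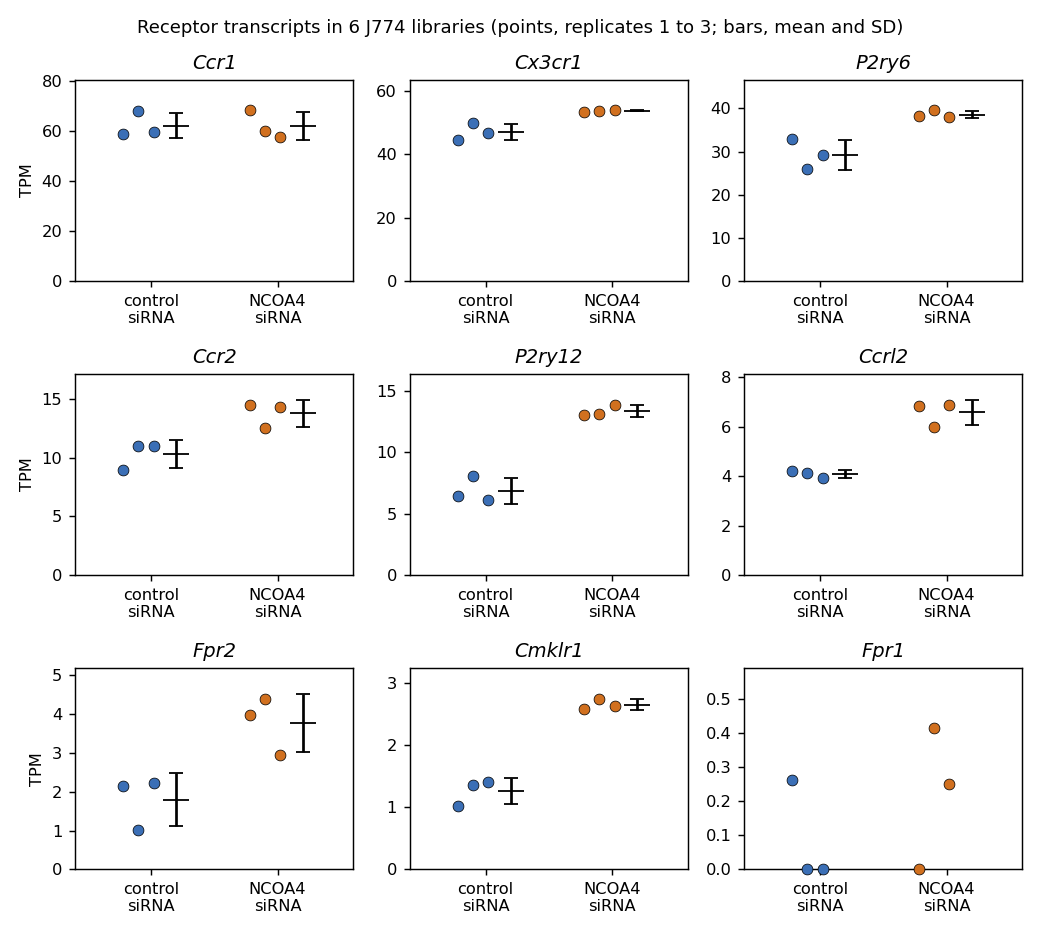
TPM (linear vertical axes starting at 0) of each receptor in the 3 control siRNA libraries (blue) and the 3 NCOA4 siRNA libraries (orange), in order of control level; horizontal marks and bars give mean and SD, left out for Fpr1, which is at 0 in 3 libraries. The groups are separate for 7 receptors and overlap for Ccr1 and Fpr1.

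The receptors spanned a wide range of levels. With control siRNA, Ccr1 was the most abundant of them at 62.1 ± 4.98 TPM, followed by Cx3cr1 at 47.0 ± 2.65 TPM and P2ry6 at 29.3 ± 3.47 TPM. Ccr2, P2ry12 and Ccrl2 came next, and each neighbouring pair down to Ccrl2 had ranges that did not overlap. Fpr2 and Cmklr1 were at 1.80 ± 0.674 and 1.26 ± 0.209 TPM, and their ranges overlapped. The order of means was the same with NCOA4 siRNA, but there the ranges of Ccr2 (12.5 to 14.5 TPM) and P2ry12 (13.1 to 13.9 TPM) overlapped. Summed over the 9 genes, the level was 162.7 ± 5.38 TPM in controls and 194.5 ± 5.63 TPM after knockdown. Ccr1 supplied 38.1% ± 1.77 of that sum in controls and 31.8% ± 1.95 after knockdown, and P2ry12 supplied 4.20% ± 0.495 and 6.87% ± 0.400.

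Among the nucleotide receptors, P2ry12, a receptor for ADP known from platelets and microglia, had the smallest adjusted p of the group. It was at 6.43, 8.04 and 6.10 TPM in the control libraries and at 13.1, 13.1 and 13.9 TPM after NCOA4 knockdown. Every NCOA4 siRNA library was thus well above every control. The log2 fold change was 0.92 (SE 0.106, 95% interval 0.67 to 1.17, adjusted p = 0.00719). These levels rest on 81 to 124 reads in the controls and 182 to 213 reads after knockdown. P2ry12 (chr3:59216272-59262871, minus strand) lies inside Med12l, a Mediator subunit gene on the opposite strand, and shares 9 exonic bases with it. Med12l averaged 0.619 TPM in controls and 1.21 TPM after knockdown (adjusted p = 0.158). Library preparation was stranded, but the strand setting of the read counting is not given in the sources used here. Of the 6 platelet and megakaryocyte markers, Ppbp was at 0.322, 0 and 0 TPM in controls and at 1.43, 0.847 and 1.22 TPM after knockdown, on at most 9 reads (adjusted p = 0.0515). Tubb1 was at 0 in the controls and at 0.122, 0.392 and 0.118 TPM after knockdown, on at most 3 reads. Itga2b and Gp9 averaged at most 0.208 TPM in either group, and Gp1bb was at 0 in every library. The part of these genes in the P2ry12 result was not tested. Pf4, which macrophages also express, rose by a log2 fold change of 0.35 (adjusted p = 0.0489). Of the microglia markers, Sall1 was at 0 in every library and none of the 3 tested passed an adjusted p of 0.05.

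P2ry6, a receptor for UDP that is linked to phagocytosis, was at 32.8, 25.9 and 29.1 TPM in controls and at 38.2, 39.6 and 38.0 TPM after knockdown. The lowest value with NCOA4 siRNA was above the highest control. The log2 fold change was 0.40 (SE 0.0847, 95% interval 0.20 to 0.60, adjusted p = 0.0455), which is below the fold threshold, so P2ry6 passed the test without being called. It passed in 5 of 16 other settings of the processing.

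Of the other nucleotide and adenosine genes listed, 8 of 15 were tested. An adjusted p of 0.05 was passed by 3, all higher, against 3.11% of all genes tested that were higher. P2ry13, another ADP receptor that lies 5390 bases from P2ry12 on the same strand, was at 3.38, 2.61 and 2.88 TPM in controls and at 5.72, 6.68 and 6.56 TPM after knockdown. All 3 libraries with NCOA4 siRNA were above all controls, and the log2 fold change was 0.98 (SE 0.121, adjusted p = 0.00855). Entpd1 (CD39) is no receptor but the surface enzyme that breaks down ATP and ADP. It went from 1.59, 2.28 and 1.72 TPM to 5.92, 5.76 and 5.32 TPM, a log2 fold change of 1.39 (SE 0.140, adjusted p = 0.00466). The ATP-gated channel P2rx7 rose by a log2 fold change of 0.26 (adjusted p = 0.0299), under the fold threshold. P2ry2, which lies 21919 bases from P2ry6, had a log2 fold change of -0.21 with an interval from -0.45 to 0.03.

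**Figure D2:**
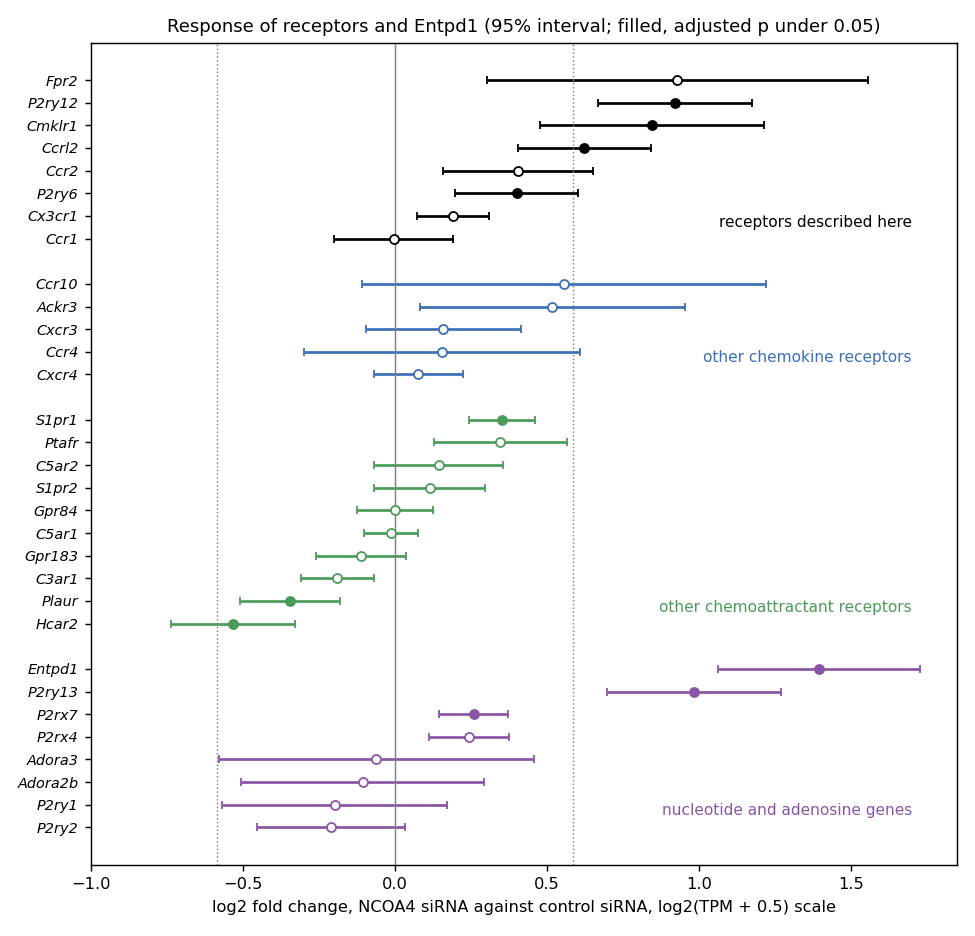
Log2 fold change with 95% interval (horizontal axis, NCOA4 siRNA against control siRNA on the log2(TPM + 0.5) scale) of every tested receptor, grouped by list; filled points have an adjusted p under 0.05 and dotted lines mark a fold change of 1.5. P2ry12, Cmklr1 and Ccrl2, and in the nucleotide and adenosine group P2ry13 and the enzyme Entpd1, are filled beyond the upper dotted line.

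The chemerin-binding receptors both rose. Ccrl2 was at 4.22, 4.13 and 3.91 TPM in controls and at 6.83, 6.01 and 6.89 TPM with NCOA4 siRNA, and the groups did not overlap. Its log2 fold change was 0.62 (SE 0.0921, 95% interval 0.40 to 0.84, adjusted p = 0.0158), on 53 to 65 reads in controls and 85 to 108 after knockdown. Cmklr1, the signalling receptor for chemerin, was at 1.02, 1.36 and 1.41 TPM in controls and at 2.58, 2.75 and 2.63 TPM after knockdown. The control values were the more scattered, and all lay below the NCOA4 siRNA values. The log2 fold change was 0.85 (SE 0.156, 95% interval 0.48 to 1.21, adjusted p = 0.0293), on only 20 to 28 reads in controls and 51 to 54 after knockdown. Ccrl2 was called in 8 of 16 other settings and Cmklr1 in 8 of 15, whereas P2ry12 was called in 15 of 16. Rarres2, which encodes chemerin itself, was listed at 0 in all libraries.

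None of the 3 chemokine receptors passed the test on log2(TPM + 0.5), while Ccr2 (adjusted p = 0.00589) and Cx3cr1 (adjusted p = 0.0259) passed, below the fold threshold, with limma-voom on rebuilt reads. Ccr1, which binds Ccl3 and several other CC chemokines, was at 58.8, 67.8 and 59.7 TPM in controls and at 68.2, 60.1 and 57.4 TPM with NCOA4 siRNA. The groups overlapped throughout. Its log2 fold change was 0.00 with a 95% interval from -0.20 to 0.19 (adjusted p = 0.984). Ccr2, the main receptor for Ccl2 on monocytes, was at 8.94, 11.0 and 11.0 TPM in controls and at 14.5, 12.5 and 14.3 TPM after knockdown. The groups did not overlap, but the log2 fold change of 0.40 (95% interval 0.16 to 0.65) had an adjusted p of 0.0785 in the limma fit and did not pass. Cx3cr1, the receptor for fractalkine, was at 44.4, 49.7 and 46.8 TPM in controls and at 53.4, 53.7 and 53.8 TPM after knockdown. Its libraries with NCOA4 siRNA were close together and above every control, with a log2 fold change of 0.19 (95% interval 0.07 to 0.31, adjusted p = 0.0848). Cx3cr1 shares 78 exonic bases with the antisense gene Gm33858, which averaged 0.335 TPM in controls and 0.416 TPM after knockdown.

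The span annotated for Cx3cr1 also covers Wdr48, Gorasp1, Ttc21a, Csrnp1, Xirp1, Gm49427, Gm47043 and 1700019L13Rik, none of which shares an exonic base with it. Cmklr1 likewise overlaps Gm15736, and P2ry6 overlaps Gm44545, with no exonic base in common.

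Of 20 other chemokine receptors, 5 were tested and none passed an adjusted p of 0.05 in the limma fit. Cxcr4, the most abundant of them, was at 36.2 to 37.5 TPM in controls and 36.9 to 42.3 TPM after knockdown.

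The formyl peptide receptors were low. Fpr2, which senses formyl peptides and annexin A1, was at 2.15, 1.02 and 2.22 TPM in controls and at 3.99, 4.39 and 2.94 TPM after knockdown. The groups did not overlap, and the log2 fold change of 0.93 was as large as that of P2ry12, but its interval was wide (0.30 to 1.56) and its adjusted p was 0.102. The values rest on 8 to 16 reads in controls and 23 to 31 after knockdown. Fpr2 shares 48 exonic bases with Fpr3, which was listed at 0 throughout. Fpr1 was at 0.263 TPM in 1 control library and 0 in the other two, and at 0, 0.416 and 0.250 TPM after knockdown. No library held more than 3 reads of Fpr1, so no fold change is given.

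Of 21 genes listed as other chemoattractant receptors, 10 were tested. Hcar2 and Plaur were on the list without being complement, lipid, formyl peptide or chemerin receptors. At an adjusted p under 0.05, 1 was higher and 2 were lower, against 3.11% and 2.31% of all genes tested. S1pr1, a receptor for sphingosine 1-phosphate, rose by a log2 fold change of 0.35 (adjusted p = 0.00996). Hcar2, a receptor for niacin and ketone bodies, and Plaur, the urokinase receptor, were lower, with log2 fold changes of -0.53 (adjusted p = 0.0204) and -0.35 (adjusted p = 0.0375). None of these exceeded the fold threshold. The complement receptor C5ar1, at 191 to 200 TPM in every library, had a log2 fold change of -0.01 with an interval from -0.10 to 0.08.

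**Figure D3:**
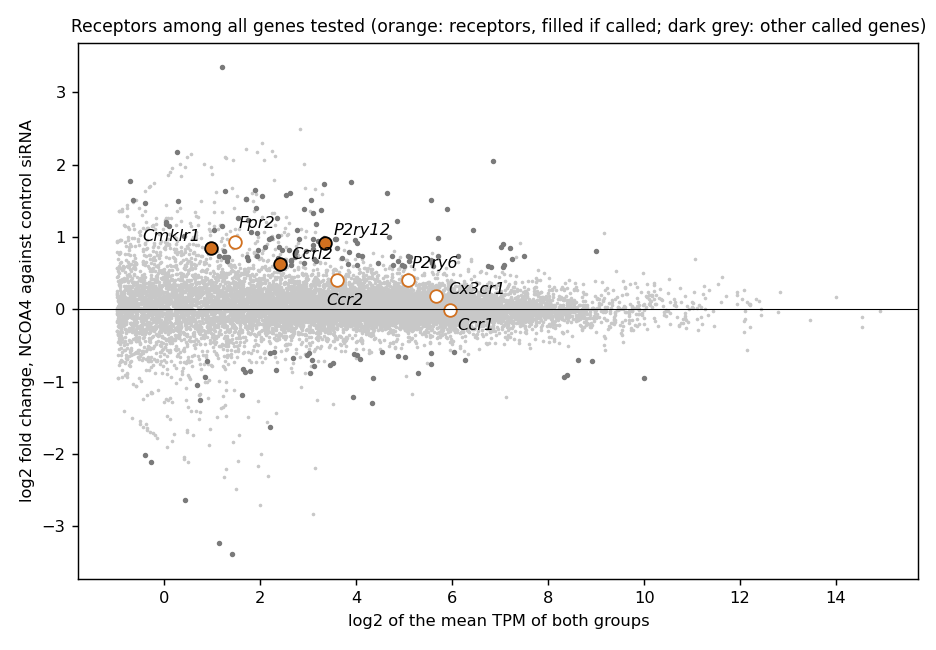
Log2 fold change (vertical axis) against the log2 of the mean TPM of both groups (horizontal axis) for the 13829 genes tested (light grey), with the other called genes in dark grey and the 8 tested receptors in orange, filled where called. The 3 called receptors are at moderate or low levels, and the most abundant receptor, Ccr1, sits at 0.

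The ligands that passed the test were all lower after knockdown. Of 18 genes listed, 12 were tested, and 2 of those listed are the sheddases Adam10 and Adam17 and not ligands. At an adjusted p under 0.05, 5 fell and none rose, against 2.31% of all genes tested that fell and 3.11% that rose. By sign alone, 6 of the 12 were above 0. Ccl3 went from 1510, 1278 and 1256 TPM to 719, 739 and 635 TPM (log2 fold change -0.95, adjusted p = 0.00390), and Ccl4 from 397, 429 and 449 TPM to 215, 233 and 220 TPM (log2 fold change -0.93, adjusted p = 0.00127). Both were called lower, with no overlap between the groups. Ccl2, Ccl7 and Ccl9 also fell, with log2 fold changes of -0.50, -0.36 and -0.26. Ccl3 and Ccl9 are ligands of Ccr1, and Ccl2 and Ccl7 of Ccr2. Annexin A1 (Anxa1), a ligand of Fpr2, had a log2 fold change of 0.10 with an interval from -0.10 to 0.30. Cx3cl1, the ligand of Cx3cr1, averaged under 0.02 TPM in both groups.

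Of 49 genes listed for signalling downstream of these receptors, 39 were tested. At an adjusted p under 0.05, 4 rose and 2 fell, against 3.11% of all genes tested that rose and 2.31% that fell. Rgs1, which shortens G protein signals, was called lower, from 10.0, 11.1 and 11.2 TPM to 5.60, 5.55 and 5.68 TPM (log2 fold change -0.88, SE 0.0736, adjusted p = 0.00234). Of those that rose, Gna12, Grk2 and Rgs10 had log2 fold changes of 0.27, 0.21 and 0.28, and the kinase Ptk2b had a log2 fold change of -0.22. Gnai2, the main inhibitory G protein of leukocytes, was at 554 to 584 TPM in every library and had a log2 fold change of -0.03 with an interval from -0.12 to 0.06.

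**Figure D4:**
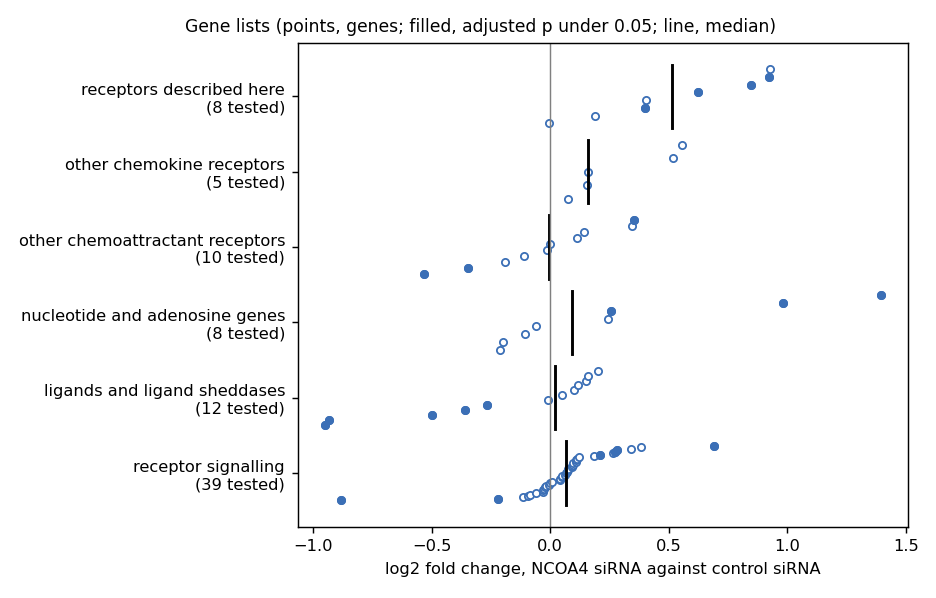
Log2 fold change (horizontal axis, NCOA4 siRNA against control siRNA) of each tested gene in 6 lists, with filled points at an adjusted p under 0.05 and a line at each list's median. The receptors described here have a median of 0.51, and the filled points among the ligands all lie below 0.

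Promoters were compared because several members rose together. RefSeq starts (GRCm38.p6) were found for 8 of the 9 receptors, with 10 starts in all. The E-box letters CANGTG, a subset of the general E-box CANNTG, were read on both strands of the 250 bases before the start. They were present at 6 of the 10 starts and in 39.5% of all 32851 promoters. The 6 starts belong to Ccr2, Ccrl2, Cmklr1 and P2ry12. Several are Ccrl2 starts, some with overlapping windows that share the same letters, so the starts are not independent. The stretches around CANGTG are given here for the called receptors, with the match in capitals. Letters are on the strand of the gene, and Ccrl2 is shown at the most upstream of its starts.
P2ry12, chr3:59263196-59263225, minus strand: cccatgggttcaCACGTGatgacatcgcag
Cmklr1, chr5:113643731-113643760, minus strand: tgagggcaaatgCACGTGttgagaggttca
Ccrl2, chr9:111057600-111057629, minus strand: ctcctcacagtcCACCTGaccgtgtcccac
Ccrl2, chr9:111057527-111057556, minus strand: ggtcagctacatCAAGTGtcccagcatcaa
The matches begin 228, 145, 99 and 26 bases before the respective starts, and the RefSeq start of P2ry12 lies 114 bases from the nearest GENCODE start. Exons of any gene on either strand in GENCODE cover all 250 bases before that start, which lie outside the span annotated for P2ry12. They also cover all 250 for Cx3cr1, 233 for Ccr2 and 139 to 140 for the other Ccrl2 starts. P2ry12 and Cmklr1 carry the palindrome CACGTG, found in 6.02% of all promoters. Those letters were picked out after the stretches had been read, so the match is a description only. Other letters searched on both strands were CANNTG (10 of 10 starts, 66.2% of all promoters), GAGGAA (3 starts, 23.3%), TTNCNNAA (5 starts, 36.8%), TATAAA (2 starts, 12.4%), TGANTCA (0 starts, 6.75%) and the interferon-stimulated response element (0 starts, 2.98%).

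The genes whose levels followed each receptor that passed the test most closely were found by Pearson's r of log2(TPM + 0.5) over the 6 libraries, among protein-coding genes of at least 5 TPM. For P2ry12 they were Stard9, Dock8 and Chd9, and for Ccrl2 they were Nacc2, Tmem110 and Notch1. For Cmklr1 they were Ern1, Sft2d1 and the Fc receptor Fcgr1, and for P2ry6 they included Idnk and Rogdi. All those named had r of at least 0.99 over libraries that also share the difference between the groups, so r is a description only.

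**Figure D5:**
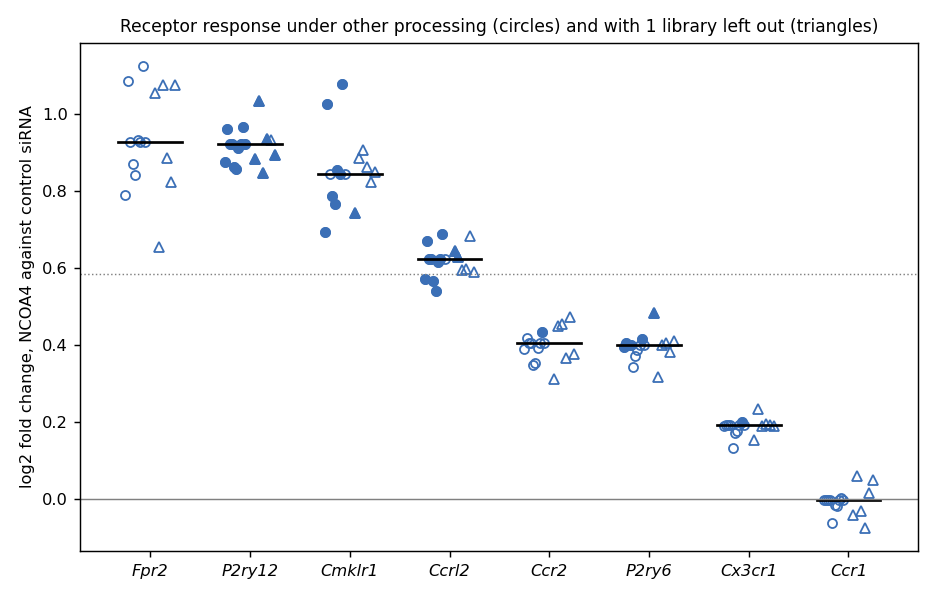
Log2 fold change (vertical axis) of each tested receptor under other processing (circles) and with 1 library left out (triangles); filled symbols have an adjusted p under 0.05, black lines are the reported values and the dotted line is a fold change of 1.5. P2ry12 stays between 0.85 and 1.03, and Ccr1 falls on both sides of 0.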

How the data were processed

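Total RNA of 3 control siRNA and 3 NCOA4 siRNA cultures of J774 cells was sequenced from stranded mRNA libraries. The authors deposited TPM for each library, with the same total in every library and no scaling between libraries. The submitters' processing notes name Trimmomatic 0.33, FastQC, HISAT2 2.1.0, featureCounts, edgeR and the build mm10. The authors tested raw counts with edgeR, and that test was not repeated here.

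Symbols and positions came from GENCODE M21 (GRCm38) for 55227 identifiers, and 260 had no name. Whole reads were rebuilt from TPM and exon length (tolerance 0.02 of a read) for 20770 of 21096 expressed genes. For another 325 genes the length was itself searched, and 1 gene was left out. They served to state depth and to run limma-voom as an alternative. On a 2 kb gene, a single read corresponded to 0.0825 to 0.0959 TPM. Read counts cover counting error only.

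Genes with a mean of at least 0.5 TPM entered lmFit and trended eBayes of limma 3.58.1 (R 4.3.3), with log2(TPM + 0.5) as the response. P-values were Benjamini-Hochberg adjusted over all genes. Fold changes are on this scale, which understates changes of low genes. An exact two-sided permutation test over 20 arrangements cannot go below 0.1, and gave 0.1 for the 7 receptors without overlap. The test was tried on simulated data.

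The members, the gene lists and the tests were chosen with earlier results of these data known. The named genes are all members, up to 6 genes of each list by adjusted p under 0.05, genes overlapping a member, and 3 genes per passing member by correlation. Other genes named (C5ar1, Cxcr4, P2ry2, Gnai2, Anxa1, Cx3cl1, Rarres2) were chosen after their values were seen. Apart from Pf4, the neutrophil, platelet and microglia markers named did not meet the rule either, nor did Adam10 and Adam17. A few genes selected by the rule are left unreported. Of the signalling genes, 2 listed under older names had no match.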

Additional observations from a re-analysis of the deposited data

How the results depend on the processing

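The alternatives tried were a pseudocount of 1 or of 0.1, omission of the filter, a mean of at least 5 TPM, median centring, quantile normalization, removal of mitochondrial genes, eBayes without a trend, limma-voom, the replicate block and each library left out. The log2 fold changes of the other 7 tested receptors stayed above 0 in every alternative that gave a value. Only that of Ccr1 changed sign, and it became 0.0015 with limma-voom, 0.0599 without control siRNA replicate 2, 0.0142 without NCOA4 siRNA replicate 2 and 0.0475 without NCOA4 siRNA replicate 3. With 1 library left out the range was -0.076 to 0.0599. The receptors with an adjusted p under 0.05 numbered 4, 6 with limma-voom (Ccr2 and Cx3cr1 added), 2 with no filter, where more genes were tested, and 3 with a mean of at least 5 TPM, median centring, quantile normalization, no mitochondrial genes or no trend. P2ry6 had an adjusted p of 0.0956 with median centring and 0.171 without NCOA4 siRNA replicate 2. With 1 library left out they numbered 0 to 4 and the called receptors 0 to 3. The adjusted p count was 2 without control siRNA replicate 2, 1 without control siRNA replicate 3 or NCOA4 siRNA replicate 1 or 3, and 0 without NCOA4 siRNA replicate 2, where P2ry12 had an adjusted p of 0.0517. Genes called numbered 163, 218 with limma-voom, and 77 to 172 with 1 library left out (86, 77 and 98 without NCOA4 siRNA replicate 1, 2 and 3). Fewer samples were used in these fits. Of called genes 73.0% were higher, against 60.7% with median centring and 61.9% with quantile normalization. Same-numbered libraries did not deviate together over the genes tested (r = 0.028, -0.019 and 0.023), so no pairing by number was seen there. An r over all genes cannot show whether some genes are paired. With the replicate block 87 genes and 1 receptor were called, and 1 receptor had an adjusted p under 0.05.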
